A study of Homo sapiens with 36 samples.

Results

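The genes described here are the numbered zinc finger genes of human chromosome 19, that is, the protein-coding genes of that chromosome whose symbol is ZNF with a number and at most one letter. A gene counted as a member if it had at least 10 reads in total over the 3 untreated empty-vector libraries. Of 246 such genes in the count table, 202 were members and 44 fell below the minimum. The members are 202 of the 22486 genes that passed the same minimum, out of 61587 in the table. They were measured in all 36 RNA sequencing libraries of the study. Every library came from HEK293T cells, a transformed human embryonic kidney line, that lack *TXNL1* after CRISPR editing and were grown from 1 sorted cell. TXNL1 is a thioredoxin-like protein that binds the proteasome. The knockout cells carried an empty vector or were given back WT TXNL1, the D162R R234D form (TXNL1-DR-RD in the labels), which has changes at the contacts with the proteasome, or the SxxS form, which has a changed thioredoxin domain. Each of the 4 lines was left untreated (labelled DMSO), treated with 100 µM arsenite or treated with 600 µM hydrogen peroxide (labelled H2O2), for 6 h, with 3 replicates in each of the 12 groups. The labels number the replicates without saying that they came from separate cultures, so the p-values measure only the spread between these samples, which may be technical.

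Most genes of this family encode a KRAB domain followed by an array of C2H2 zinc fingers. The fingers read DNA, often inside retroelements, and the KRAB domain recruits TRIM28, which brings the histone methyltransferase SETDB1 and heterochromatin proteins to silence the bound site. The family grew by tandem duplication, so its genes lie in clusters along chromosome 19, and neighbours are often close in sequence. Other members lack the KRAB domain.

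Libraries held 42072410 to 174119002 counted reads (median 66016833), of which the 202 members took 78211 to 252541, or 0.145 to 0.199%. A pair of libraries stood apart, WT arsenite replicate 1 and WT hydrogen peroxide replicate 2. Around the median of their own group, their log2 values over 15674 genes had an SD of 0.502 and 0.571, while the other 34 libraries had 0.0687 to 0.174. GC-rich transcripts were high in both. The 25 members with a GC content of at least 55% summed to 405 CPM (reads per 1e6 reads counted, scaled for library composition) in WT arsenite replicate 1 and to 287 and 284 in replicates 2 and 3, and to 493 in WT hydrogen peroxide replicate 2 against 347 and 340 in replicates 1 and 3. The main counts that rest on these libraries are therefore given with and without them. Finer counts, such as those by cluster, arm, finger number, KRAB pattern, motif and other gene list, are given only with them. *TXNL1* itself was at 28.6 to 31.7 CPM in the untreated vector libraries and at 51.7 to 66.2 CPM in the untreated lines given back TXNL1. A CRISPR edit need not remove the transcript, so these levels show only that the lines given TXNL1 are the higher ones. The line's markers *VIM* (445 to 670 CPM) and *CDH2* (31.1 to 69.1 CPM) were present in every library, the kidney and neuronal genes *PAX2*, *EYA1* and *NEFL* were at 0.147 to 3.12 CPM, and the blood, endothelial and liver markers *PTPRC*, *CD3E*, *PECAM1* and *ALB* were at or under 0.299 CPM.

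Most members were expressed at a low level. In untreated vector cells the members ranged from 0.00484 to 50.4 read counts per kilobase of gene and per 1e6 reads (RPKM), with a median of 0.816, and 115 of the 202 were under 1 RPKM. At the top of the range stood *ZNF146*, which encodes little more than an array of fingers, at 50.4 ± 0.758 RPKM (SD, n = 3). *ZNF428* followed at 19.1 ± 3.79, *ZNF581* at 15.2 ± 0.748, *ZNF317* at 13.2 ± 0.323 and *ZNF358* at 11.8 ± 1.27 RPKM. Only these 5 members were above 10 RPKM, and of neighbours in this order *ZNF428* and *ZNF581*, and *ZNF317* and *ZNF358*, had overlapping ranges of mean ± SD. Just inside the count minimum were *ZNF439* and *ZNF793* with 10 reads and *ZNF253* with 11 over the 3 untreated vector libraries, and just outside it *ZNF528* with 8 and *ZNF600* and *ZNF808* with 7.

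Of the 44 genes under the minimum, 30 had no read in the untreated vector libraries, where a count of 0 allows up to 3 reads, and 22 had at most 10 reads over all 36 libraries together. *ZNF729*, *ZNF726*, *ZNF285* and *ZNF728* had none in any library. A large share, 18 of the 44, lay between *ZNF101* and *ZNF254*, the stretch of the short arm beside the centromere. Some of these genes had more reads in the arsenite libraries. *ZNF610* had 10 reads over the 12 untreated libraries, 155 over the 12 arsenite libraries and 11 over the 12 hydrogen peroxide libraries, which is 0 to 0.0367 CPM per untreated library and 0.0368 to 0.264 CPM per arsenite library. *ZNF528* went from 98 to 287 reads, *ZNF600* from 26 to 117 and *ZNF844* from 4 to 71. The L1 repressor *ZNF93* had 0 reads in untreated, 28 in arsenite and 5 in hydrogen peroxide libraries, and *ZNF558* had 0, 13 and 2. *ZNF91*, which silences SVA elements, had 8, 7 and 11, and *ZNF808* had 42, 96 and 40. In all, 26 of the 44 had more reads in arsenite than in untreated libraries. These genes entered no test. They were picked for few reads in 3 of the 12 untreated libraries, so their untreated side is low by selection. Raw reads are also not on one scale, as the largest arsenite library held 174119002 reads and the largest untreated one 80658689. The count of 26 therefore does not show a rise.

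The member proteins, as translated from the canonical transcripts, held 1 to 29 C2H2 fingers (median 12), and 160 of the 202 matched a KRAB box pattern. Along the chromosome the members formed 16 clusters when neighbours whose starts lie under 1 Mb apart are joined. The 7 clusters with at least 13 members held 182 of them. Exons of 127 members overlap exons of another annotated gene. It is not stated whether the counting used strand, so reads of a member and an overlapping gene may not be told apart, and 75 members are free of such overlap. Reads of close copies such as *ZNF780A* and *ZNF780B*, *ZNF324* and *ZNF324B*, or *ZNF587*, *ZNF587B*, *ZNF814* and *ZNF417* may also have been shared out in a way that cannot be seen in the counts.

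The first comparison asked what arsenite, which binds thiols and causes oxidative stress, did to these genes. Averaged over the 4 lines, 75 members rose and 69 fell with arsenite (edgeR quasi-likelihood test, adjusted p under 0.05), while 37.4% of all tested genes rose and 31.5% fell. The members' shares, 37.1% higher and 34.2% lower, were near those of all genes. Their median log2 fold change was 0.03, and that of all tested genes was 0.06. Counted over the members only, large changes went both ways: 16 members had a log2 fold change of at least 1 and 10 fell by at least 1. Of the risers 71 had the same sign in all 4 lines, and of the fallers 66, again with no such count over all tested genes. A stricter reading, called within each line on its own, left 34 higher and 38 lower members, against 14.9% and 16.1% of all genes. Without the pair of libraries that stood apart, 80 members rose and 76 fell, or 77.2% of the members called in either direction, and the share of all genes called rose with it, from 68.8% to 73.7%. In bulk RNA, fewer cells that express a gene and less of its RNA per cell cannot be told apart.

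**Figure D1:**
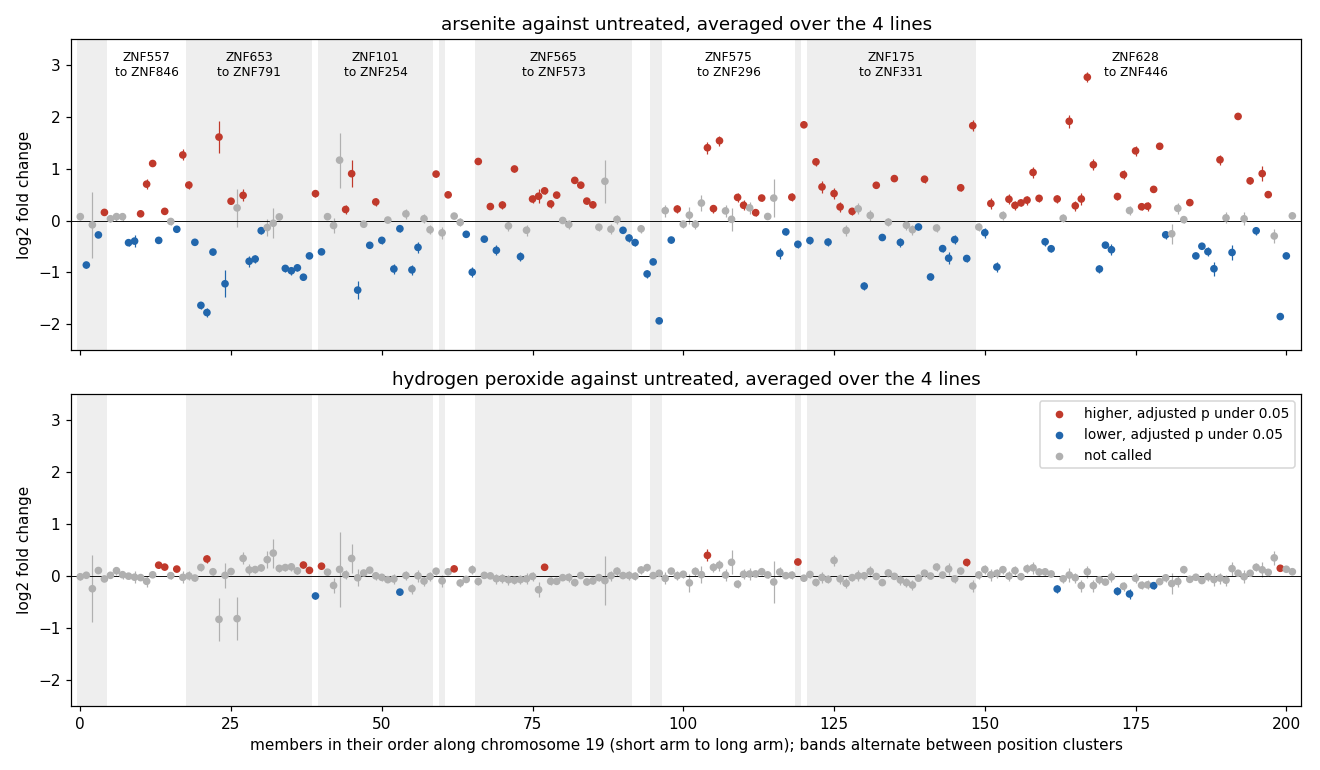
The log2 fold change of each of the 202 members, averaged over the 4 lines with its standard error, is plotted in order along chromosome 19 for arsenite (upper panel) and hydrogen peroxide (lower panel), with called members coloured by direction. Arsenite values run from -1.93 (*ZNF526*) to 2.76 (*ZNF547*), with 75 members called higher and 69 lower, while 13 and 6 are called in hydrogen peroxide.

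The sequences upstream of 3 risers and 3 fallers, taken from the 10 largest changes in each direction, are shown first, so that members that move together can be read against them. Each is the part of the 250 bases before the RefSeq start site (GRCh38.p14) that lies outside the gene's GENCODE span, 5′ to 3′ on the gene's strand, and the capitals mark the promoter motifs searched for that lie whole within it, on either strand. The risers are *ZNF547* at chr19:57363301-57363476 (plus), *ZNF274* at chr19:58182811-58183028 (plus) and *ZNF460* at chr19:57279732-57279981 (plus), and the fallers are *ZNF324B* at chr19:58451372-58451610 (plus), *ZNF441* at chr19:11766750-11766999 (plus) and *ZNF823* at chr19:11739010-11739196 (minus).
ZNF547: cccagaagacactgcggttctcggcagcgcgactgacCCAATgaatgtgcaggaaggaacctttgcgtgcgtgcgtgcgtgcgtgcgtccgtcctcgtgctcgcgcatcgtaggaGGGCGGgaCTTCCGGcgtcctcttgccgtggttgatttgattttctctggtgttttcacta
ZNF274: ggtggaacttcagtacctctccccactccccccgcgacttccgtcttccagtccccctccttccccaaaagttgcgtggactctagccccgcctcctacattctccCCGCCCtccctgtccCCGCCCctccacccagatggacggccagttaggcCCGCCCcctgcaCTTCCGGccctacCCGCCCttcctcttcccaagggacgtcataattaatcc
ZNF460: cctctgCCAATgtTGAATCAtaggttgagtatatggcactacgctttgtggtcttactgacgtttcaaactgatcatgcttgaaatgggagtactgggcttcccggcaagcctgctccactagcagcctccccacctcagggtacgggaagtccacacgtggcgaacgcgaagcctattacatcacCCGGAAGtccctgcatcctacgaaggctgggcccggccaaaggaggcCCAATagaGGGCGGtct
ZNF324B: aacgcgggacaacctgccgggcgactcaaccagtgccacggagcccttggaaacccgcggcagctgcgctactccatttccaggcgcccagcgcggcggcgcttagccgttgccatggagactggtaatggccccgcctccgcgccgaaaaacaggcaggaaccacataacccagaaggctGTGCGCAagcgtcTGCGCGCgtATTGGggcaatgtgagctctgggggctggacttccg
ZNF441: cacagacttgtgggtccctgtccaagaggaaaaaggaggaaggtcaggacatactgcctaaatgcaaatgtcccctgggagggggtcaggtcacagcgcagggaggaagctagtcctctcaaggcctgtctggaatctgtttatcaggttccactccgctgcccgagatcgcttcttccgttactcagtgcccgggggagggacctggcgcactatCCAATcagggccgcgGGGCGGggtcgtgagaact
ZNF823: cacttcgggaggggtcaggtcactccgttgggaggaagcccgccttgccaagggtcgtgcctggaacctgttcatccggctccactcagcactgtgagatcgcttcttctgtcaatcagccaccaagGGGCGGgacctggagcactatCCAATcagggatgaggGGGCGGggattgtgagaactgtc
All 3 risers shown hold GGGCGG (the GC box, CCGCCC on the other strand) and CCGGAAG (the core of ETS factor sites, CTTCCGG on the other strand), and in *ZNF547* and *ZNF274* a pair of them lies almost side by side. These motifs do not set risers apart. The fallers *ZNF441* and *ZNF823* hold GGGCGG too, and an ETS core of *ZNF324B* runs past the end of the stretch shown. *ZNF550*, also among the 10 largest rises, held none of the motifs searched. *ZNF441* and *ZNF823* hold a CCAAT box inside the same 17 bases, gcactatCCAATcaggg, a run that no other promoter in the table contains. The table had no entry for *ZNF473*, *ZNF211* or *ZNF155*, and *ZNF526* is not shown because 67 bases of its window lie in exons of *DEDD2*.

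*ZNF547* had the largest rise among the members named by rule (chr19:57363477-57379565, plus strand, 10 fingers). It was at 0.238 to 0.555 CPM with a median of 0.391 in the 12 untreated libraries and at 1.94 to 3.22 CPM with a median of 2.71 in the 12 arsenite libraries. The 2 sets of libraries did not overlap. The rise was 6.78-fold (log2 fold change 2.76 ± 0.10, SE, edgeR adjusted p = 2.72e-20), or, line by line on the log2 scale, 2.89 (vector), 2.93 (WT), 2.84 (D162R R234D) and 2.39 (SxxS). Its exons are shared in small part with *TRAPPC2B* and with ENSG00000268133, which had log2 fold changes of 1.21 and 1.51.

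*ZNF274* binds the 3′ ends of zinc finger genes, where it recruits SETDB1 (chr19:58183029-58213562, plus strand, 5 fingers). Its level was 8.61 to 10.3 CPM with a median of 9.23 in untreated cells and 32.2 to 41.5 CPM with a median of 38.0 with arsenite. Every arsenite library was above every untreated one. The level rose 4.02-fold (log2 fold change 2.01 ± 0.04, SE, edgeR adjusted p = 3.88e-27), with log2 fold changes of 1.99 (vector), 1.79 (WT), 2.17 (D162R R234D) and 2.07 (SxxS). No exon of another gene overlaps *ZNF274*. In hydrogen peroxide its log2 fold change was 0.06 and was not called.

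*ZNF473* encodes a zinc finger protein that takes part in the processing of histone pre-mRNA (chr19:50025714-50053414, plus strand, 18 fingers). Its level was 36 to 42.2 CPM with a median of 38.2 in untreated and 108 to 161 CPM with a median of 138 in arsenite libraries. Again the libraries were fully separated. The rise was 3.59-fold (log2 fold change 1.84 ± 0.04, SE, edgeR adjusted p = 1.55e-26), with log2 fold changes of 1.93 (vector), 1.63 (WT), 2.03 (D162R R234D) and 1.79 (SxxS). *VRK3* on the opposite strand, with which *ZNF473* shares 3.23% of its exon bases, had a log2 fold change of 0.52, and the antisense transcript ENSG00000269091 one of 1.67.

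*ZNF460* (chr19:57280051-57294069, plus strand, 11 fingers) went from a median of 1.02 CPM (0.658 to 1.27) to a median of 3.89 CPM (1.97 to 4.72). The imprinted gene *ZNF331* (chr19:53519527-53580269, plus strand, 12 fingers) went from a median of 0.757 CPM (0.546 to 0.95) to a median of 2.78 CPM (1.95 to 3.28). Both genes were low in untreated cells and above that range in each arsenite library. *ZNF460* rose 3.76-fold (log2 fold change 1.91 ± 0.12, SE, edgeR adjusted p = 3.31e-14) and *ZNF331* 3.55-fold (log2 fold change 1.83 ± 0.11, SE, edgeR adjusted p = 3.02e-15). The next largest rises were of the same kind. *ZNF222* rose from a median of 1.04 to 3.14 CPM (log2 fold change 1.54 ± 0.10, SE, edgeR adjusted p = 3.16e-14), *ZNF211* from 4.14 to 11.2 CPM (log2 fold change 1.43 ± 0.05, SE, edgeR adjusted p = 3.93e-20) and *ZNF155* from 0.706 to 1.77 CPM (log2 fold change 1.40 ± 0.11, SE, edgeR adjusted p = 3.72e-12). *ZNF550* rose from 1.21 to 3.08 CPM (log2 fold change 1.34 ± 0.09, SE, edgeR adjusted p = 2.06e-13) and *ZNF846* from 0.602 to 1.41 CPM (log2 fold change 1.26 ± 0.11, SE, edgeR adjusted p = 1.03e-11). In all 5 the untreated and arsenite libraries did not overlap. *ZNF155* shares 41.4% of its exon bases with the antisense transcript *ZNF230-DT*, whose log2 fold change was 1.07, so the share of each in the rise cannot be told apart.

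*ZNF526* fell most (chr19:42220292-42228201, plus strand, 13 fingers and no KRAB pattern). It was at 22.5 to 24.7 CPM with a median of 23.5 in untreated and 5.38 to 7.22 CPM with a median of 6.20 in arsenite libraries, a drop with no overlap and little spread. The log2 fold change was -1.93 ± 0.04 (SE, edgeR adjusted p = 1.04e-27), with -1.94 (vector), -1.82 (WT), -2.05 (D162R R234D) and -1.92 (SxxS). *GSK3A* on the opposite strand, with which *ZNF526* shares 4.64% of its exon bases, had a log2 fold change of -0.46. The nearest member, *ZNF574*, also fell (log2 fold change -0.80), and the pair makes up a cluster of its own.

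*ZNF324B* (chr19:58451611-58457833, plus strand, 9 fingers) fell from a median of 8.27 CPM (6.97 to 9.5) to a median of 2.25 CPM (1.81 to 2.73). The groups did not overlap (log2 fold change -1.85 ± 0.05, SE, edgeR adjusted p = 5.53e-23). Its close copy *ZNF324* fell less, with a log2 fold change of -0.68. Among the fallers the neighbours *ZNF441* (chr19:11767000-11784078, plus strand, 14 fingers) and *ZNF823* (chr19:11721265-11739009, minus strand, 15 fingers) lie next to each other on opposite strands. *ZNF441* went from a median of 2.77 CPM (2.19 to 3.35) to a median of 0.852 CPM (0.568 to 1.08), and *ZNF823* from a median of 6.70 CPM (5.78 to 8.34) to a median of 2.28 CPM (1.64 to 2.87). Neither gene had an arsenite library inside its untreated range. Both falls passed the test, *ZNF441* (log2 fold change -1.77 ± 0.08, SE, edgeR adjusted p = 9.04e-18) and *ZNF823* (log2 fold change -1.63 ± 0.07, SE, edgeR adjusted p = 1.16e-18).

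*ZNF66* fell with more spread, from a median of 1.72 CPM (0.752 to 1.98) to a median of 0.696 CPM (0.392 to 0.957), and its ranges overlapped (log2 fold change -1.34 ± 0.18, SE, edgeR adjusted p = 8.73e-08). *ZNF616* went from a median of 16.1 CPM (13.5 to 18.2) to a median of 6.68 CPM (4.09 to 8.12) without overlap (log2 fold change -1.26 ± 0.08, SE, edgeR adjusted p = 4.20e-14). *ZNF490* (log2 fold change -1.09 ± 0.06, SE, edgeR adjusted p = 3.21e-16), *ZNF816* (log2 fold change -1.09 ± 0.06, SE, edgeR adjusted p = 1.94e-16), *ZNF780A* (log2 fold change -1.03 ± 0.08, SE, edgeR adjusted p = 4.85e-13) and *ZNF792* (log2 fold change -0.995 ± 0.09, SE, edgeR adjusted p = 1.64e-10) completed the 10 largest falls. Their medians went from 5.53 to 2.63, 4.43 to 1.98, 17.1 to 8.06 and 4.06 to 2.10 CPM. *ZNF490* shares 51.1% of its exon bases on the same strand with ENSG00000269693, which had a log2 fold change of -1.02. All 20 of these risers and fallers kept their direction and their call under every other processing tried.

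**Figure D2:**
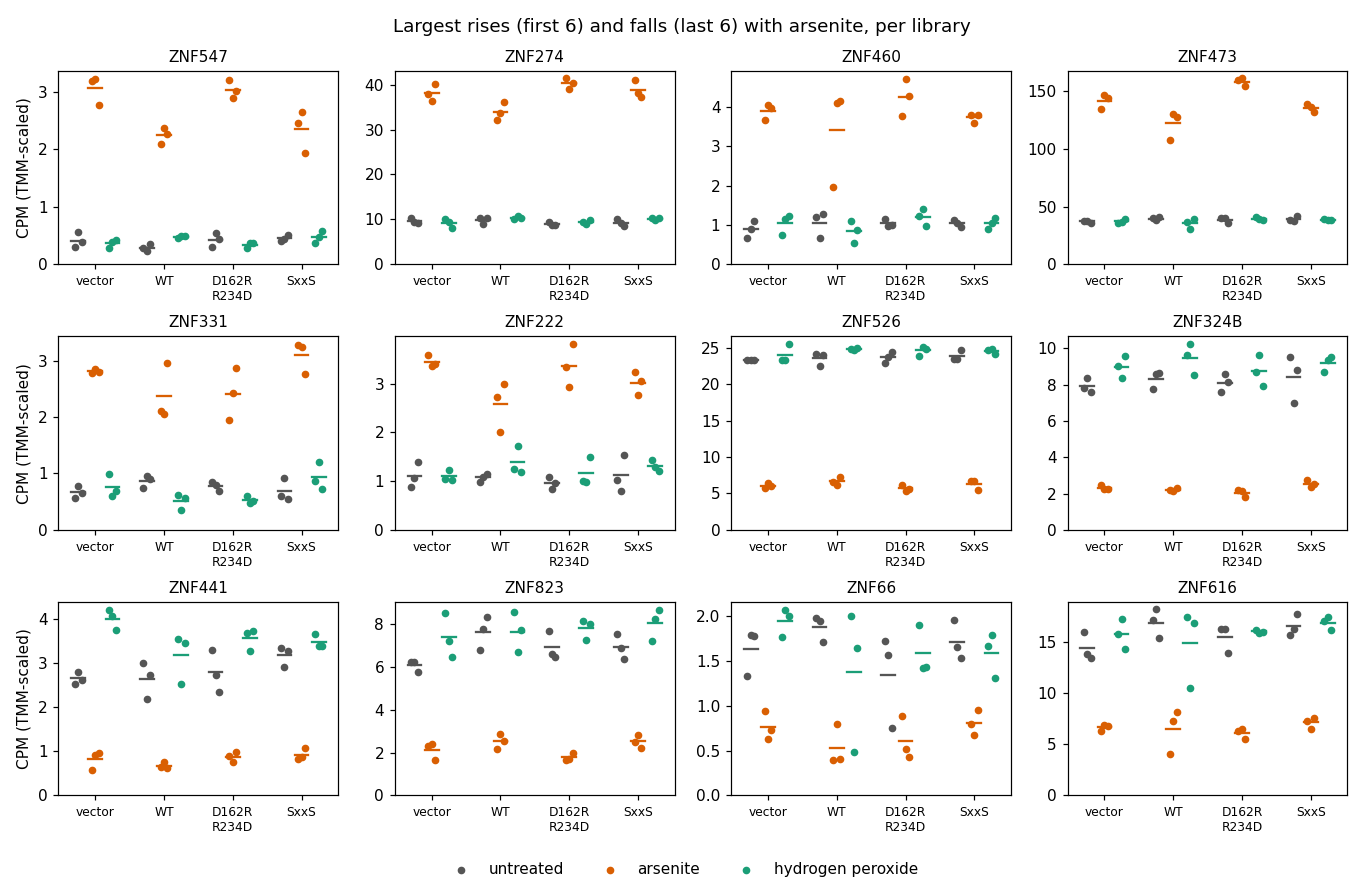
CPM in each of the 36 libraries are shown for 6 members that rose with arsenite (*ZNF547*, *ZNF274*, *ZNF460*, *ZNF473*, *ZNF331*, *ZNF222*) and 6 that fell (*ZNF526*, *ZNF324B*, *ZNF441*, *ZNF823*, *ZNF66*, *ZNF616*), by treatment and line, with a line at each group's mean. Arsenite and untreated points are separated in all panels except *ZNF66*, and hydrogen peroxide points lie near the untreated ones.

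Upstream sequences were then compared over the members as a whole. Of the 202 members 181 had a promoter in the table, which holds 35116. The members are tested protein-coding genes with 1 promoter each, and the 35116 were not limited in these ways. The shares below therefore compare unlike sets, and a difference need not be particular to the members. The ETS core CCGGAAG occurred in the 250 bases upstream of 53 members, or 29.3%, against 8.52% of all promoters. The CCAAT box (CCAAT) was found in 48.6% against 32.0%, and the GC box (GGGCGG) in 60.2% against 42.6%. The YY1 motif AAGATGGCG was in 3.31% against 0.652%, and the metal response core TGCGCNC in 23.8% against 16.8%. TATAAA was rarer, in 2.21% against 10.7%. The AP-1 motif (TGANTCA) was in 6.08% against 6.57%, the antioxidant response core (TGACNNNGC) in 11.6% against 10.9% and the core of the heat shock element (TTCNNGAA) in 4.97% against 6.62%. By direction with arsenite, the heat shock core was upstream of 7 of 67 risers and 1 of 65 fallers (10.4 and 1.54%), and AP-1 upstream of 3 and 7 (4.48 and 10.8%). These differences were not tested. The cyclic AMP response element TGACGTCA was rare in both (2.76% against 1.65%). All motifs were searched on both strands and a match is not a site in use. Between members that rose, fell or were not called, the ETS core was in 35.8, 23.1 and 28.6% and the CCAAT box in 41.8, 58.5 and 44.9%. The GC box was in 55.2, 67.7 and 57.1%, and these differences were not tested either. A median of 60.4% of promoter bases were G or C in the members, against 58.0% in all promoters.

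The shares also varied by position on the chromosome. CCAAT was upstream of 18 of 20 members with an entry in the *ZNF653* to *ZNF791* cluster and of all 16 in the *ZNF101* to *ZNF254* cluster, both on the short arm, but of 4 of 25 in the *ZNF565* to *ZNF573* cluster and 4 of 18 in the *ZNF575* to *ZNF296* cluster. With 3 bases more, CCAATcag was upstream of 39 members, 17 and 16 of them in the former pair of clusters and 6 elsewhere, and of 3.81% of all promoters. The ETS core was upstream of 26 of 49 members in the cluster at the end of the long arm and of 1 of 20 in the *ZNF653* to *ZNF791* cluster. Duplicated neighbours share sequence by descent, so members of one cluster are not independent.

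The balance of rises and falls with arsenite varied from cluster to cluster, and every cluster of at least 13 members held both. Differences between clusters were not tested, and over all tested genes 37.4% rose and 31.5% fell. In the *ZNF653* to *ZNF791* cluster (11.48 to 12.64 Mb) 13 of 21 members fell and 4 rose, with a median log2 fold change of -0.61. Next to each other at its end, *ZNF443* (-0.92), *ZNF709* (-0.97), *ZNF564* (-0.91), *ZNF490* (-1.09) and *ZNF791* (-0.68) all fell on the log2 scale. The cluster's exceptions were *ZNF653* (0.68), *ZNF439* (1.61), *ZNF700* (0.37) and *ZNF433* (0.48). Of these *ZNF439* sat at the count minimum, with a median of 0.0635 CPM in untreated and 0.210 CPM in arsenite libraries. The *ZNF101* to *ZNF254* cluster (19.67 to 24.13 Mb) had 8 lower and 3 higher of 19, with a median of -0.10. The opposite balance was seen in the *ZNF565* to *ZNF573* cluster (36.18 to 37.82 Mb), with 13 higher and 5 lower of 26 and a median of 0.28. There *ZNF790* (0.41), *ZNF345* (0.47), *ZNF829* (0.57), *ZNF568* (0.32) and *ZNF420* (0.49) rose side by side, and *ZNF565* (1.14) and *ZNF461* (0.99) rose more, while *ZNF567* (-0.70) and *ZNF260* (-0.57) fell.

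The *ZNF575* to *ZNF296* cluster (43.53 to 45.08 Mb) had 9 higher and 3 lower of 22. In the largest cluster, *ZNF628* to *ZNF446* at the end of the long arm (55.48 to 58.48 Mb), 26 of 53 rose and 16 fell (median 0.23). Within it 6 neighbours in a row rose (*ZNF580*, *ZNF581*, *ZNF787*, *ZNF444*, *ZNF582* and *ZNF583*), and 4 neighbours in a row fell, the close copies *ZNF587B* (-0.68), *ZNF814* (-0.50), *ZNF587* (-0.60) and *ZNF417* (-0.93). *ZNF814* and *ZNF587* overlap on opposite strands. Among the 6 that rose in a row, *ZNF580*, *ZNF581*, *ZNF787* and *ZNF444* had 61.8 to 70.4% GC. GC-rich transcripts were high in WT arsenite replicate 1, and the run was not recounted without that library. The *ZNF175* to *ZNF331* cluster (51.57 to 53.58 Mb) was mixed, with 10 higher and 11 lower of 28, and so was the *ZNF557* to *ZNF846* cluster, with 5 and 4 of 13. By arm, 14 rose and 27 fell of 59 members on the short arm, and 61 rose and 42 fell of 143 on the long arm. Of 186 pairs of neighbours within clusters, 98 had both genes called: both higher in 31, both lower in 25 and opposite in 42.

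Directions were unevenly spread over the number of fingers. Of the 56 members with up to 9 fingers 28 rose and 9 fell (median log2 fold change 0.23), and of the 52 with 10 to 12 fingers 24 rose and 15 fell (0.11). With 13 to 15 fingers the balance turned, to 10 higher and 29 lower of 52 (median -0.24), and with at least 16 fingers it was 13 and 16 of 42 (-0.14). By KRAB pattern, 57 of the 160 members with it rose and 54 fell, and of the 42 without it 18 rose and 15 fell. Members free of exon overlap with other genes had 25 higher and 27 lower of 75, and a median of -0.07. Over all tested genes 37.4% rose and 31.5% fell. These groupings of members overlap with the clusters and were not tested against each other.

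Averaged over the lines, the tested ZNF genes of other chromosomes had 35.0% higher and 46.2% lower with arsenite (median log2 fold change -0.12). The 901 other protein-coding genes of chromosome 19 had 49.1% higher and 23.5% lower (median 0.18). Their values were uneven over the lines: in WT cells 49.5% were higher (median 0.36), and in each of the other lines at most 26.5% (medians 0.07 to 0.14). The differences between these lists were not tested, and the lists were not recounted without WT arsenite replicate 1.

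**Figure D3:**
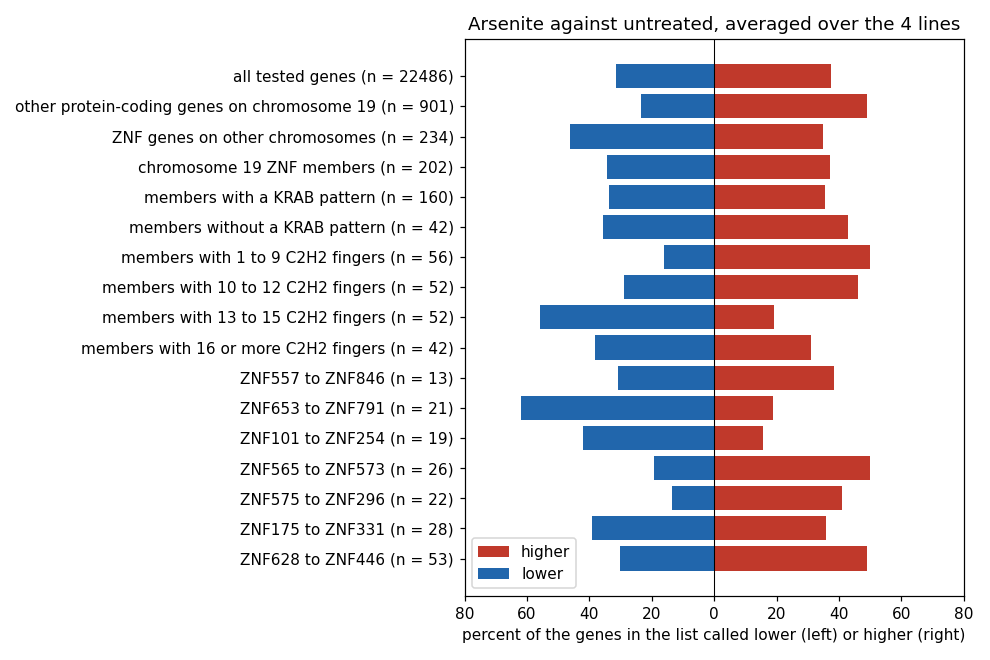
Bars give the percent of genes called higher and lower with arsenite, averaged over the 4 lines, for the members, for groups of members and for other gene lists. The members, at 37.1% higher and 34.2% lower, lie near all tested genes at 37.4% and 31.5%, and members with 13 to 15 fingers stand at 19.2% and 55.8%.

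The proteins that KRAB zinc fingers recruit, with other heterochromatin and DNA methylation genes, were taken as a separate list of 18 genes. Of these 4 rose and 9 fell with arsenite, while 37.4% of all tested genes rose and 31.5% fell. The difference was not tested. *TRIM28*, the cofactor that binds the KRAB domain, had a log2 fold change of -0.07 (edgeR adjusted p = 0.158) and was not called. Larger were the falls of the chromatin remodeller *ATRX* (-0.75), *UHRF1*, which guides maintenance DNA methylation (-0.73), the heterochromatin protein gene *CBX5* (-0.47) and the remodeller *CHD4* (-0.44). The HUSH complex genes *TASOR* (-0.28) and *MPHOSPH8* (-0.21), its partner *MORC2* (-0.22), *CBX1* (-0.15) and the histone methyltransferase *SETDB1* (-0.09) fell by less. *HDAC1*, *DAXX*, *CHD3* and *HDAC2* rose, by 0.08 to 0.11 on the log2 scale. Among C2H2 genes of chromosome 19 without a ZNF number, 6 of 14 were tested, of which *ZIK1* (2.05, from 0.0636 CPM), *ZSCAN5A* (0.51) and *ZFP28* (0.32) rose and *ZSCAN22* (-1.08), *ZFP30* (-0.55) and *ZFP14* (-0.15) fell.

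The other members named for a known role or a high level had smaller changes with arsenite. *ZNF420* went from a median of 10.2 CPM (9.05 to 11.3) to a median of 14.3 CPM (12.9 to 15.1), with no overlap (log2 fold change 0.49 ± 0.05, SE, edgeR adjusted p = 5.50e-10). *ZNF224*, a KRAB repressor known from the aldolase A gene, rose (log2 fold change 0.45 ± 0.08, SE, edgeR adjusted p = 1.32e-05), and so did *ZNF568*, whose mouse counterpart silences a placental *Igf2* transcript (log2 fold change 0.32 ± 0.07, SE, edgeR adjusted p = 0.000238). *ZNF224* shares 42.4% of its exon bases with the antisense transcript *ZNF225-AS1*, whose log2 fold change was 0.48. Of the most abundant members, *ZNF146* fell from a median of 213 CPM (198 to 241) to a median of 176 CPM (117 to 186) (log2 fold change -0.36 ± 0.06, SE, edgeR adjusted p = 3.20e-06), and *ZNF317* fell from a median of 73.1 CPM (64.8 to 77.4) to a median of 54.3 CPM (34.8 to 60) (log2 fold change -0.43 ± 0.06, SE, edgeR adjusted p = 2.70e-07). In both, the highest arsenite library was below the lowest untreated one. *ZNF581* rose (log2 fold change 0.29 ± 0.08, SE, edgeR adjusted p = 0.00211). *ZNF428* also passed the test (log2 fold change 0.22 ± 0.09, SE, edgeR adjusted p = 0.0237), but lost its call without WT arsenite replicate 1 or vector untreated replicate 1 (edgeR, the larger adjusted p = 0.0681), with no filter on low counts (adjusted p = 0.0935) and with the GC correction without or with the replicate block (adjusted p = 0.0853 and 0.0587). *ZNF358* did not pass (log2 fold change 0.08 ± 0.08, SE, edgeR adjusted p = 0.400).

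Whether the state of TXNL1 changed the arsenite response was tested as an interaction of line and treatment. Taken line by line, 54 members rose and 52 fell in vector cells, against 22.1% and 21.4% of all tested genes. In WT cells 45 rose and 68 fell (28.7% and 24.9% of all genes), in D162R R234D cells 54 and 46 (22.5% and 21.5%) and in SxxS cells 57 and 49 (22.1% and 21.5%). Without WT arsenite replicate 1 the WT counts were 43 higher and 54 lower, while the share of all genes called in either direction went from 53.6% to 42.8%. Without both libraries that stood apart they were 46 and 68, and in the other lines, which share the estimate of spread, 67 and 61 (vector), 62 and 64 (D162R R234D) and 69 and 62 (SxxS), with 52.9 to 57.0% of all genes called in the 4 lines. The interaction, tested with edgeR, was called for 0 members (0.00% of all genes), with 13 members at an unadjusted p under 0.05. DESeq2 called 2 (158 of the 22486 tested genes), and edgeR without the pair of libraries that stood apart called 1 (46 of all tested genes). The smallest p with edgeR was that of *ZNF296* (edgeR adjusted p = 0.627). It was among the 2 members that DESeq2 called (DESeq2 adjusted p = 0.0134), so its call depends on the tool.

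**Figure D4:**
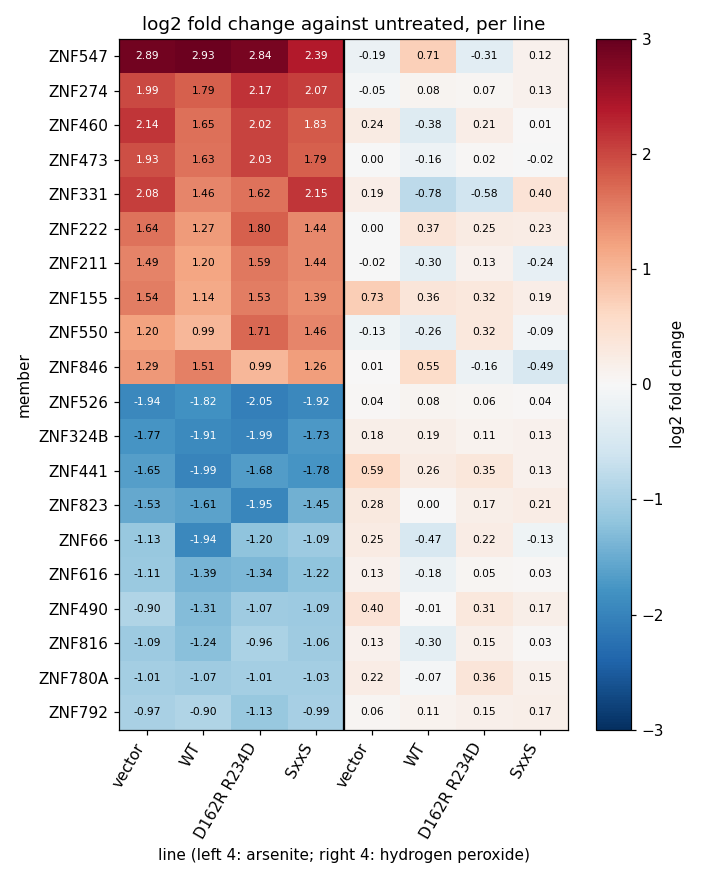
Log2 fold changes of the 20 rule-named arsenite members are coloured for each of the 4 lines (columns) under arsenite and under hydrogen peroxide. The rule took only members with one direction in all 4 lines under arsenite, so the shared sign there follows from the choice. The sizes can be compared, as for *ZNF274* at 1.99, 1.79, 2.17 and 2.07 and for *ZNF526* at -1.94, -1.82, -2.05 and -1.92.

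With hydrogen peroxide, the other oxidant, few members passed the test at the dose and time used. Averaged over the lines, 13 members rose and 6 fell (edgeR quasi-likelihood test), against 6.78% and 5.30% of all tested genes, and no called member changed by 0.5 or more on the log2 scale in either direction. The members' median log2 fold change was 0.01 and that of all genes 0.00. Without the pair of libraries that stood apart the counts were 33 higher and 12 lower, or 22.3% of the members against 9.41% with them. The share of all genes called rose as well, from 12.1% to 28.6%. Both treatments were compared with the same untreated libraries, so the values below are given side by side only.

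Among the called members *ZNF333* fell most, and in each of the 4 lines its hydrogen peroxide replicates lay below its untreated ones. It was at 4.95 to 6.12 CPM with a median of 5.56 in untreated, 3.21 to 5.07 CPM with a median of 4.38 in hydrogen peroxide and 5.74 to 9.34 CPM with a median of 8.04 in arsenite libraries. Over the lines together the untreated and hydrogen peroxide ranges overlapped at their edges. The fall in hydrogen peroxide passed the test (log2 fold change -0.38 ± 0.07, SE, edgeR adjusted p = 0.000122), and the log2 fold change in arsenite was 0.52. Part of its exon bases, 11.7%, is shared with *ADGRE2* on the opposite strand. *ZNF429* went from a median of 5.36 CPM (4.41 to 6.27) to a median of 4.24 CPM (3.82 to 4.84) (log2 fold change -0.31 ± 0.06, SE, edgeR adjusted p = 0.00130). *ZNF419* (log2 fold change -0.29 ± 0.07, SE, edgeR adjusted p = 0.00832) and *ZNF549* (log2 fold change -0.34 ± 0.10, SE, edgeR adjusted p = 0.0166) fell as well, with overlapping ranges. *ZNF264* (log2 fold change -0.25 ± 0.08, SE, edgeR adjusted p = 0.0284) lost its call under 7 of 36 alternatives, and *ZNF134* had a log2 fold change of -0.18.

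*ZNF441*, a strong faller in arsenite, was among the risers in hydrogen peroxide. Its level there was 2.54 to 4.21 CPM with a median of 3.6, a range that overlapped the untreated one (log2 fold change 0.33 ± 0.08, SE, edgeR adjusted p = 0.00294). *ZNF114* was at 4.58 to 6.10 CPM with a median of 5.49 in untreated and 5.41 to 7.40 CPM with a median of 6.69 in hydrogen peroxide libraries (log2 fold change 0.27 ± 0.07, SE, edgeR adjusted p = 0.00538). *ZNF813* (log2 fold change 0.26 ± 0.07, SE, edgeR adjusted p = 0.00628) and *ZNF426* (log2 fold change 0.21 ± 0.06, SE, edgeR adjusted p = 0.00984) rose too. In arsenite the log2 fold changes of *ZNF114* and *ZNF813* were -0.46 and -0.73. *ZNF155* had the largest rise among the called members (log2 fold change 0.40 ± 0.12, SE, edgeR adjusted p = 0.0232), at 0.638 to 1.29 CPM with a median of 0.915. It lost its call when vector untreated replicate 1, vector hydrogen peroxide replicate 1 or D162R R234D hydrogen peroxide replicate 2 was left out (edgeR, largest adjusted p = 0.0528). The other risers, chosen by the call alone, were *ZNF490*, *ZNF101*, *ZNF121*, *ZNF829*, *ZNF324B*, *ZNF181*, *ZNF562* and *ZNF791*, at log2 fold changes of 0.11 to 0.21. Of the 13 higher, 11 had the same sign in all 4 lines, and so had all 6 lower, which was not counted over all tested genes.

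Within single lines hydrogen peroxide gave 1 called member in vector cells, *ZNF441* (1.35% of all genes were called), 15 in WT cells (8.06%), 0 in D162R R234D cells (1.03%) and 0 in SxxS cells (1.02%). In D162R R234D and SxxS cells 17 and 21 members had an unadjusted p under 0.05 by edgeR, and DESeq2 called 0 and 0. Fitting only the groups compared called 11 members in vector cells (12.5% of all genes were called) and 14 in SxxS cells (7.21%), and without both libraries that stood apart 9 were called in vector (9.87%), 5 in D162R R234D (10.4%) and 14 in SxxS cells (6.56%). In WT cells 12 of the 15 were higher, by 0.32 to 0.92 on the log2 scale (5.80% of all genes were higher and 2.26% lower): *ZNF446*, *ZNF787*, *ZNF865*, *ZNF581*, *ZNF428*, *ZNF358*, *ZNF444*, *ZNF580*, *ZNF628*, *ZNF296*, *ZNF579* and *ZNF837*. All 12 had a GC content of 60.2 to 70.9% and no KRAB pattern, while the median over the members was 42.5% GC. The 3 lower were *ZNF331* (-0.78), *ZNF333* (-0.51) and *ZNF429* (-0.40). WT hydrogen peroxide replicate 2 is the library whose GC-rich members summed to 493 CPM. Leaving it out left 1 called member (3.03% of all genes were called), leaving out replicate 1 or 3 gave 35 (17.0%) and 27 (16.2%), and correcting for GC content gave 5 (4.73%). Without both libraries that stood apart 9 were called (8.98%). Fitting the WT groups alone called 0 members and 1 gene in all.

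**Figure D5:**
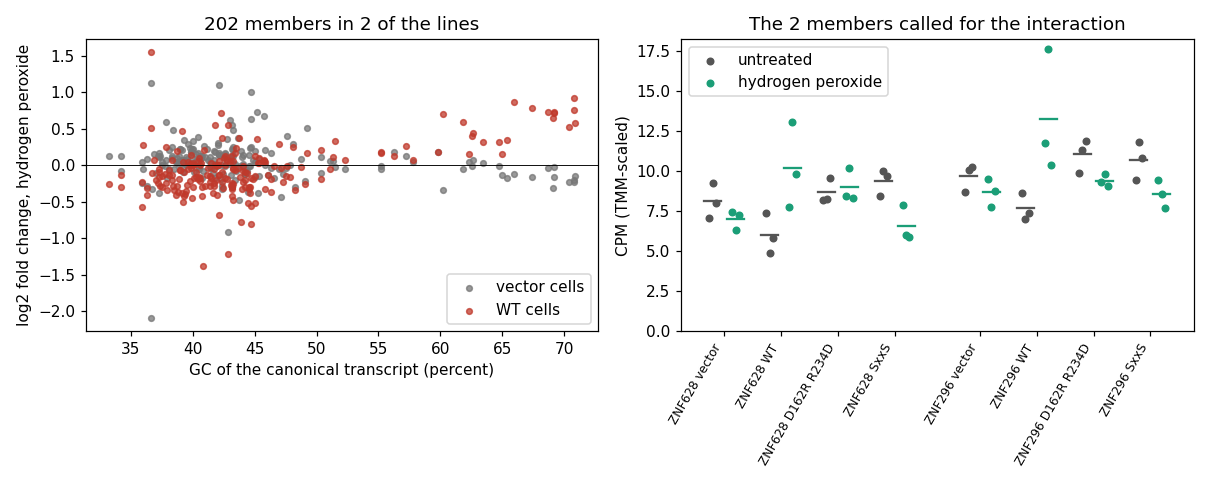
The log2 fold change with hydrogen peroxide of each of the 202 members is plotted against the GC content of its transcript in vector and in WT cells, beside the CPM of *ZNF628* and *ZNF296* in each untreated and hydrogen peroxide library. In WT cells the 12 members called higher lie at 60.2 to 70.9% GC, and WT hydrogen peroxide replicate 2 has the highest value of both genes, 13.1 CPM for *ZNF628* and 17.6 CPM for *ZNF296*.

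The response to hydrogen peroxide differed by line, with edgeR, for *ZNF628* (adjusted p = 0.0132) and *ZNF296* (adjusted p = 0.0160), against 0.685% of all genes. In WT cells *ZNF628* was at 7.37, 4.87 and 5.84 CPM untreated and at 7.73, 13.1 and 9.79 CPM with hydrogen peroxide, and in SxxS cells at 8.46, 9.99 and 9.67 against 7.88, 6.03 and 5.85 CPM. *ZNF296* was at 8.62, 7.03 and 7.40 against 11.7, 17.6 and 10.4 CPM in WT, and at 9.44, 11.8 and 10.8 against 9.41, 8.57 and 7.69 CPM in SxxS cells. In both genes every WT hydrogen peroxide library was above every WT untreated one, and every SxxS hydrogen peroxide library below every SxxS untreated one. On the log2 scale the changes were -0.21 (vector), 0.76 (WT), 0.06 (D162R R234D) and -0.51 (SxxS) for *ZNF628*, and -0.16 (vector), 0.78 (WT), -0.23 (D162R R234D) and -0.32 (SxxS) for *ZNF296*. Neither call was kept without WT hydrogen peroxide replicate 2 (adjusted p = 0.0521 and 0.103) or after a correction for GC content (0.765 and 0.122). The part of GC content in these differences was not tested further.

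Without treatment, no member was called between the lines. Against vector cells, edgeR called 0 members in WT (0.196% of all genes were called), 0 in D162R R234D (0.0267%) and 0 in SxxS (0.0178%), with 28, 7 and 11 at an unadjusted p under 0.05. DESeq2 called 1 in WT (140 of the 22486 tested genes), 0 in D162R R234D and 0 in SxxS cells. The smallest p in WT cells was that of *ZNF814*, at 6.32, 5.73 and 5.69 CPM in vector and 7.88, 8.29 and 7.72 CPM in WT cells, without overlap (log2 fold change 0.43 ± 0.11, SE, edgeR adjusted p = 0.124). It was called under 3 of 17 alternatives. *ZNF574* in D162R R234D cells was at 28.0, 30.0 and 31.0 CPM against 24.4, 27.1 and 25.3 in vector cells (log2 fold change 0.21 ± 0.07, SE, edgeR adjusted p = 1.00). In SxxS cells *ZNF536*, a neural zinc finger gene, was at 4.28, 4.34 and 3.66 CPM against 3.29, 2.94 and 3.49 (log2 fold change 0.34 ± 0.13, SE, edgeR adjusted p = 1.00). Without the pair of libraries that stood apart, which belong to neither side of this comparison but to the shared estimate of spread, 9 members were called in WT against vector, or 4.46%, with 2.99% of all genes called.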

How the data were processed

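RNA from 36 HEK293T samples in 12 groups of 3 was sequenced as paired-end mRNA libraries, strand-specific per the labels. The authors aligned reads to GRCh38 with qAlign (QuasR) and deposited raw read counts per gene with gene lengths. Nothing was normalized or pooled. The annotation release, use of strand in counting, treatment of reads on several genes and any batch are not given in the sources used here. The doses and the exposure time come from the study's methods. Groups and replicate numbers come from the labels, and 0 count columns were left unmatched.

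From these counts, genes with at least 10 reads over the 3 untreated vector libraries were fitted over all 36 libraries with one mean per group (edgeR 4.0.16, limma 3.58.1, R 4.3.3, TMM scaling, robust quasi-likelihood, common biological coefficient of variation 12.4%). Benjamini-Hochberg adjustment ran over all 22486 genes, and calls were made at 0.05. Averaged comparisons are the mean of the 4 lines' contrasts, and interactions test all line differences together. CPM are TMM-scaled, and RPKM use the deposited gene length. DESeq2 1.42.0 and the other settings in the closing section were alternatives, and the code was tested on simulated data.

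Of 61587 gene IDs, 61415 matched GENCODE 44 (56987 with the same version). KRAB patterns and C2H2 fingers were counted in translated canonical transcripts, since no RefSeq protein table was used here, and a diverged KRAB box can be missed. Promoters are RefSeq's. The arms were split at the widest gap between members, 6.09 Mb.

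Genes were named by rule: the 10 largest rises and falls with arsenite and the 5 with hydrogen peroxide among called members of one direction in all 4 lines with a mean of at least 50 scaled counts, the smallest p of each other comparison, the 5 highest RPKM, and 11 genes of known role, 4 of them under the minimum. Other genes were named after their values were seen. The members and lists were chosen with earlier results of these data known. Depth limits low members most: 115 were under 1 RPKM. Not every pair of same-numbered replicates deviated together (198 pairs, r from -0.871 to 0.812, median 0.0180), and the labels name no shared batch, so the replicate block was kept as an alternative.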

Additional observations from a re-analysis of the deposited data

Results flagged for a closer look

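*ZNF628* and *ZNF296* differed between the lines in their response to hydrogen peroxide by a test of the interaction itself (edgeR adjusted p = 0.0132 and 0.0160). *ZNF628* had log2 fold changes of -0.21 (vector), 0.76 (WT), 0.06 (D162R R234D) and -0.51 (SxxS), and *ZNF296* had -0.16, 0.78, -0.23 and -0.32. Over the alternatives the adjusted p ran from 0.000674 to 0.831 for *ZNF628*, which lost its call in 6 of 36, and from 0.000127 to 0.122 for *ZNF296*, which lost it in 5 of 36. Without WT untreated replicate 2 the values were 0.0875 and 0.108, without WT untreated replicate 3 they were 0.0698 and 0.0975, and without WT hydrogen peroxide replicate 2 they were 0.0521 and 0.103.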

How the results depend on the processing

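Of 55 results for named genes 44 kept direction and call under every alternative, and so did 1824 of 1890 single comparisons. The arsenite counts averaged over the lines stayed within 1.5 times their value in all settings that kept all members (71 to 81 higher and 67 to 75 lower when 1 library was left out). Counts in hydrogen peroxide were less stable, and the cause was not tested. In the settings listed next, the number in brackets is that of all tested genes called in either direction, of 22486 unless stated. With hydrogen peroxide, DESeq2 called 3 members in vector (539) and 24 in WT cells (2604). Fitting only the groups compared called 11 in vector (2808), 0 in WT (1) and 14 in SxxS cells (1621). That fit also gave 44 lower with arsenite in WT (6416), 5 in WT against vector (466) and 1 in SxxS against vector (220). DESeq2 called 1 in WT against vector (140), 2 for the arsenite (158) and 9 for the hydrogen peroxide interaction (377). Scaling by total counts gave 0 in vector (313) and 6 for the hydrogen peroxide interaction (214). No filter gave 8 higher on average (1832 of 42726) and 0 in vector (94 of 42726). Correcting for GC content gave 22 higher on average (3140), 5 in WT (1063) and 0 for the interaction (57). With the replicate block as well it gave 22 (3056), 5 (975), 2 in vector (463) and 1 for the interaction (55). Without both outlying WT libraries there were 33 higher and 12 lower on average (6430). By line there were 9 in vector (2219), 9 in WT (2020), 14 in SxxS (1475) and 5 in D162R R234D cells (2328). The same setting gave 9 in WT against vector (673), and 1 (46) and 8 (340) for the arsenite and hydrogen peroxide interactions. Leaving out 1 library gave 0 to 1 in vector, 1 to 35 in WT and 0 to 7 for the hydrogen peroxide interaction. On average it gave 8 to 18 higher and 4 to 7 lower. Counts over all genes are not given here for these ranges.

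With the 75 members free of exon overlap, fewer by construction, arsenite gave 15 higher and 22 lower in vector, 14 and 27 in WT, 17 and 18 in SxxS, 16 and 19 in D162R R234D cells and 25 and 27 on average with a median of -0.0717, and hydrogen peroxide 7 higher and 2 lower on average and 7 in WT. The replicate block alone gave 75 higher and 69 lower for arsenite, 14 and 6 for hydrogen peroxide and 2 for the interaction, and changed no count by over 1.5 times. The labels tie the numbers to no shared batch. Of 198 pairs with the same number 49 correlated above 0.1, of 396 with different numbers 84 did, and 18 of 36 libraries correlated best with their own number.

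Signs that reversed were of values that were near 0 and not called in the report, and after the reversal *ZNF358* in arsenite was called in 1 setting. For *ZNF317* in hydrogen peroxide the log2 fold change became 0.00325 with DESeq2 size factors, 0.00324 with DESeq2, 0.0119 with no filter and 0.0375 without both outlying libraries, and ran from -0.0329 to 0.0426 when 1 library was left out. For *ZNF428* in hydrogen peroxide it became -0.00315 with total counts, -0.0258 and -0.0265 with the GC correction without and with the block, and -0.0818 without both libraries (-0.0774 to 0.0470 leaving out 1). For *ZNF358* in arsenite it became -0.0801, -0.0817 (edgeR adjusted p = 0.0466) and -0.0275 in the same last 3 settings (-0.00742 to 0.117 leaving out 1), and for *ZNF146* in hydrogen peroxide it ran from -0.0152 to 0.0599. The median log2 fold change of all genes with arsenite was 0.0603, and 0.0378, 0.0161 and 0.166 with DESeq2 size factors, total counts and no filter.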
